A study of Mus musculus with 10 samples.

Results

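Synaptic adhesion molecules are the cell-surface and secreted proteins that join the presynaptic to the postsynaptic membrane. The genes described here were taken by symbol from a list of 56 that covers the neurexins and their partners, the ligands of the LAR-type receptor phosphatases, the teneurins, the contactins and the immunoglobulin-type adhesion families. Of these, 52 were found among the 20483 genes of the deposited expression table, and Cbln1, Nxph3, Nxph4 and Lrfn1 were not analysed here. The study compared the lateral shell of the nucleus accumbens, the ventral part of the striatum, with its medial shell (5 libraries each) in wild-type (WT) mice, and its title asks how accumbens subregions process reward. No treatment and no age is given by the labels, which call the libraries biological replicates without saying whether each came from its own animal. The p-values therefore weigh the difference between the regions against the spread between these libraries, which may be partly technical. Each library was made from low-input tissue with Geo-seq, a method that amplifies RNA from small pieces cut out of a section, and the sources used here do not say how the pieces were chosen.

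Adhesion pairs across the synaptic cleft help to decide where synapses form and which receptors gather there. Neurexins on the presynaptic side bind neuroligins, leucine-rich repeat transmembrane proteins (LRRTMs) and, through secreted cerebellins, glutamate delta receptors. LAR-type phosphatases, also presynaptic, bind SLITRK, LRFN and IL1RAPL proteins, while teneurins and fibronectin leucine-rich transmembrane proteins (FLRTs) share latrophilins as receptors. In the striatum most neurons are GABAergic spiny projection neurons, which receive their excitatory input from cortex, thalamus, hippocampus and amygdala.

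Values are in TPM, a relative abundance that is scaled for transcript length. The scaling does not remove differences between genes in amplification or shared sequence, so levels of different genes are compared only roughly. Depth is not kept by this unit and is unknown, and the number of libraries limits the precision. Genes at 1 TPM or more numbered 14261 to 15406 in lateral and 15167 to 15882 in medial libraries. Mitochondrial transcripts made up 26.3 to 35.3% of the TPM in lateral and 23.5 to 32.5% in medial libraries. The part of the number of detected genes in the results below was not tested. The labels describe the cells as mouse neural cells, and the 12 markers of spiny projection neurons summed to 3974 to 6250 TPM laterally and 3992 to 6412 TPM medially. Oligodendrocyte markers summed to 312 to 960 TPM laterally and 107 to 468 TPM medially, with 9 of 10 genes at higher mean log2 values in lateral. Microglia markers summed to 328 to 526 TPM laterally and 160 to 342 TPM medially, with 8 of 8 higher in lateral and 3 past the threshold. GABAergic interneuron markers summed to 484 to 5630 TPM laterally and 25.8 to 1656 TPM medially, with 6 of 6 tested genes higher in lateral. Astrocyte markers summed to 823 to 1126 TPM in lateral and 946 to 1301 TPM in medial, with 6 of 8 higher in medial. Oligodendrocyte precursor markers summed to 22.7 to 57.9 TPM in lateral and 38.0 to 101 TPM in medial, with 5 of 6 higher in medial. Endothelial markers summed to 146 to 346 TPM in lateral and 164 to 258 TPM in medial, with 3 of 5 higher in lateral. The sums of each of these lists overlapped between the regions. Of all 15596 genes tested below, 10712 had higher mean log2 values in medial. The median log2 difference, lateral minus medial, was -0.20 for the astrocyte list, -0.21 for the precursor list and -0.21 for all genes. The medial counts of these 2 lists are therefore not read as a difference between the regions. No list had a gene listed at 0 in all libraries. The part of these cell types in the differences below was not tested, and in bulk tissue fewer cells of a type and less RNA per cell cannot be told apart. The transcript AY036118 stood at 1.38 TPM in lateral replicate 5, at 1.42 TPM in medial replicate 2 and at 82500 to 144263 TPM in the other 8 libraries, and results are given below without that pair of libraries.

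Of the 52 genes, 51 reached 1 TPM in at least 5 libraries and were tested with limma on log2(TPM + 1) among 15596 genes, with an adjusted p under 0.05 as the threshold. Cadm2 was higher in the lateral shell, and Slitrk1, Cntn1, Cadm1, Tenm2, Tenm3 and Tenm4 were higher in the medial shell. Over all genes tested, 1.48% passed, 0.385% towards lateral and 1.10% towards medial, and among the adhesion genes 7 of 51 passed (13.7%), 1 towards lateral and 6 towards medial. The median log2 fold change, lateral minus medial, was -0.02 for the 51 adhesion genes and -0.21 for all genes tested. Positive values made up 24 of the 51 and 31.3% of all genes. Relative to the median of all genes, Cadm2 stood at 1.99 and the 6 genes called towards medial at -0.81 (Cntn1) to -2.33 (Slitrk1). On that scale the medial differences are smaller and the lateral one larger than the log2 fold changes given below. At an unadjusted p under 0.05 there were 17 of 51, against 15.4% of all genes. For 7 of the 51 genes every library of one region lay above every library of the other (4.25% of all genes), with Cadm2 and Ptprd higher in lateral (0.859% of all genes) and Slitrk1, Cntn1, Tenm2, Tenm4 and Nlgn3 higher in medial (3.39%). The adhesion genes had a higher median level than all genes tested (15.2 against 9.22 TPM). Their median standard error of the log2 fold change was smaller (0.295 against 0.356). The genes were chosen with earlier results of these data known, so these shares cannot be read as a result about the family.

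**Figure D1:**
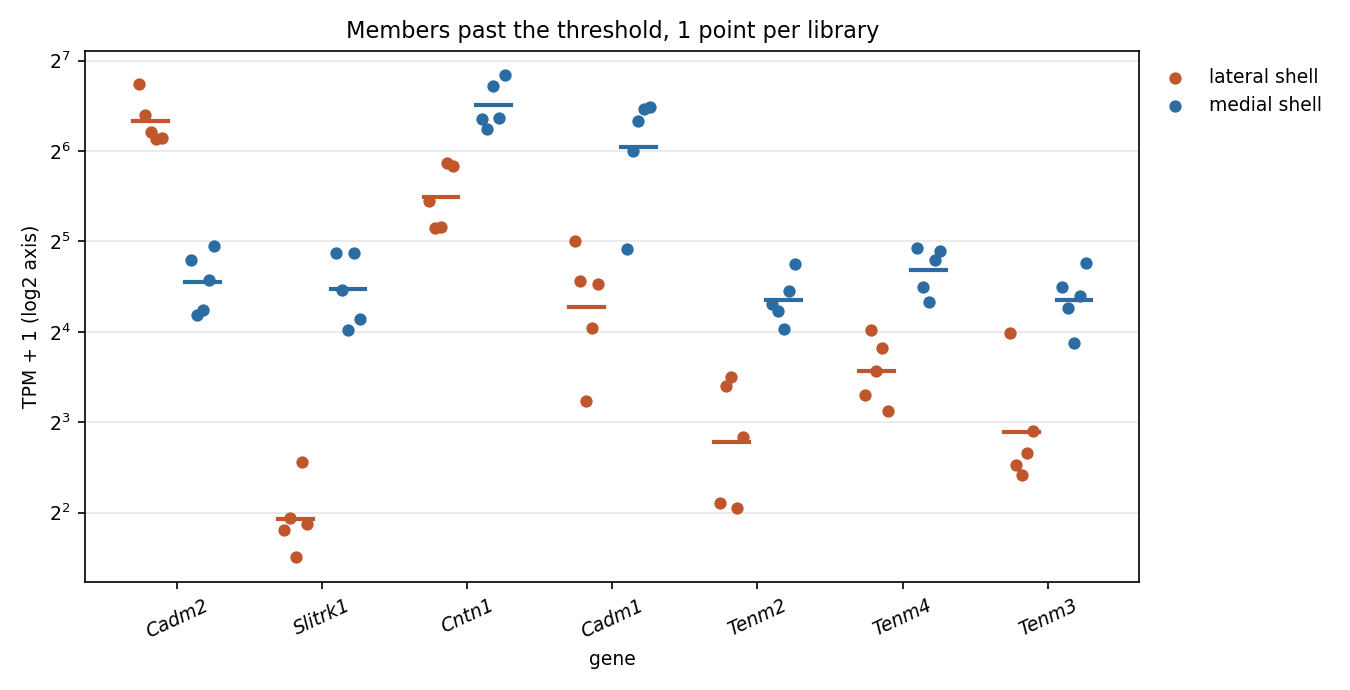
TPM + 1 on a log2 axis for the 7 genes past the threshold, with 1 point per library, lateral left and medial right, and a bar at the mean log2 value. Cadm2 is the only gene of the 7 with its lateral points above its medial ones, and the points of Cadm1 and Tenm3 overlap between the regions.

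The nectin-like CADM proteins (also called SynCAMs) are immunoglobulin-type molecules that bind across the cleft, and Cadm1 and Cadm2 proteins can bind each other. Cadm2 (chromosome 16, 66655421 to 67620908, minus strand, GRCm38) was at 106, 83.5, 73.2, 69.2 and 69.8 TPM in lateral replicates 1 to 5 and at 26.8, 17.2, 17.9, 22.7 and 29.9 TPM in medial replicates 1 to 5. Every lateral library lay above every medial library, and the lateral mean of 80.4 ± 15.6 TPM was 3.51 times the medial mean of 22.9 ± 5.52 TPM (SD, n = 5 each). The log2 fold change was 1.78 with a standard error (SE) of 0.20 (limma adjusted p = 0.00112), and it lay 1.99 above the median of all genes. Cadm1 (chromosome 9, 47530173 to 47857637, plus strand) ran the other way, at 31.1, 22.7, 8.43, 15.4 and 22.1 TPM laterally and at 29.3, 63.0, 79.4, 87.3 and 88.7 TPM medially in replicates 1 to 5. Medial replicate 1 fell among the lateral values, and the other 4 medial libraries lay above all of them (log2 fold change -1.77 with SE 0.36, limma adjusted p = 0.0288). Cadm3 averaged 28.3 ± 11.8 TPM laterally and 19.5 ± 9.90 TPM medially and did not pass (limma adjusted p = 0.503, log2 fold change 0.62, 95% interval -0.26 to 1.51).

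The ratio of Cadm2 to Cadm1 within a library does not depend on the scaling between libraries. It was 3.42, 3.68, 8.68, 4.49 and 3.15 in lateral replicates 1 to 5, and 0.916, 0.273, 0.225, 0.260 and 0.337 in medial replicates 1 to 5. Cadm2 thus had the higher TPM of the pair in all 5 lateral libraries and Cadm1 in all 5 medial libraries, with medial replicate 1 close to equality. The ratio sets a gene called towards lateral over one called towards medial, which favours separation. It therefore restates the 2 calls and adds no separate support for them. Cadm4, which is not among the 56 genes, was at 10.8 to 19.2 TPM laterally and 6.36 to 24.4 TPM medially (limma adjusted p = 0.749). The summed level of Cadm1, Cadm2 and Cadm3 overlapped between the regions, at 103 to 156 TPM laterally and 61.2 to 149 TPM medially. Cadm2 passed under all 22 alternatives run (adjusted p up to 0.0117). Cadm1 passed under 13 of 22. Among the others, it did not pass without lateral replicate 4 or 5, without medial replicate 2, 3, 4 or 5 (largest adjusted p 0.0763), without a mean-variance trend (0.0638), or without lateral replicate 5 and medial replicate 2 together (0.135).

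**Figure D2:**
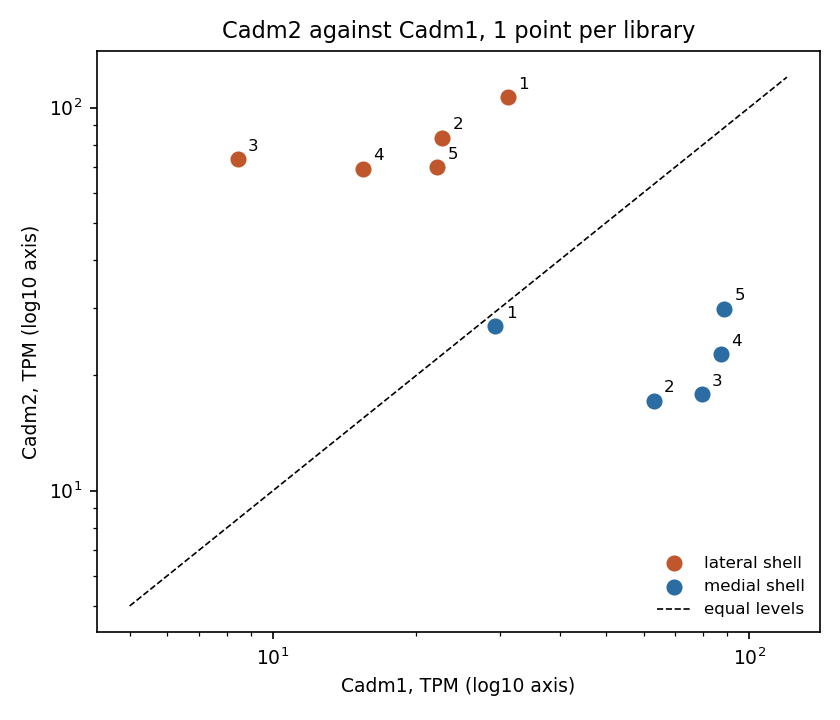
Cadm2 against Cadm1 in TPM on log10 axes, with 1 numbered point per library (the replicate number) and a dashed line at equal levels. All 5 lateral points lie above the line, and the 5 medial points lie below it with medial replicate 1 nearest to it.

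SLITRK proteins are postsynaptic leucine-rich repeat molecules that bind LAR-type phosphatases. Slitrk1 (chromosome 14, 108908800 to 108914158, minus strand) was at 2.49, 2.82, 1.84, 4.89 and 2.65 TPM laterally and at 28.2, 21.1, 15.2, 28.2 and 16.6 TPM medially in replicates 1 to 5. The highest lateral library was below the lowest medial library, and the lateral mean of 2.94 ± 1.15 TPM was 0.134 of the medial mean of 21.9 ± 6.17 TPM (SD, n = 5 each). Its log2 fold change of -2.54 had an SE of 0.29 (limma adjusted p = 0.00112) and passed under all 22 alternatives (adjusted p up to 0.015). On a scale with a pseudocount of 5 it was -1.74. None of the other 4 members passed. Slitrk3 (24.4 ± 8.78 TPM laterally, 27.8 ± 9.89 TPM medially), Slitrk4 (12.8 ± 3.95 TPM laterally, 11.7 ± 4.68 TPM medially) and Slitrk5 (20.5 ± 4.02 TPM laterally, 25.3 ± 6.22 TPM medially) had 95% intervals of the log2 fold change within -0.80 to 0.84. Slitrk2 was at 6.30 ± 2.66 TPM laterally and 3.45 ± 3.42 TPM medially (log2 fold change 0.97, 95% interval -0.11 to 2.05). Relative to Slitrk5 in the same library, Slitrk1 was at 0.0716 to 0.308 in lateral and 0.488 to 1.39 in medial libraries. Relative to Slitrk3 it was at 0.0761 to 0.287 in lateral and 0.389 to 1.303 in medial libraries. Neither ratio overlapped between the regions, but both carry the difference by which Slitrk1 was called.

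Promoter sequence is shown for the called genes whose most upstream RefSeq start (GRCm38.p6) lies within 100 bases of the gene's 5′ end in GENCODE M21, to let the upstream bases of the gene higher in lateral be read beside those of genes higher in medial. These are the 150 bases before the start, 5′ to 3′ on the gene's strand, with GC boxes (GGGCGG, either strand) in capitals. The windows are chr16:67620909-67621058 (minus) for Cadm2, chr14:108914240-108914389 (minus) for Slitrk1, chr15:92051015-92051164 (plus) for Cntn1 and chr7:96171094-96171243 (plus) for Tenm4.
Cadm2: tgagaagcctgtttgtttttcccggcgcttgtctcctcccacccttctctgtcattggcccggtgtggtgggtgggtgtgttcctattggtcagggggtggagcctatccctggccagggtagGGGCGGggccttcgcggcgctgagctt
Slitrk1: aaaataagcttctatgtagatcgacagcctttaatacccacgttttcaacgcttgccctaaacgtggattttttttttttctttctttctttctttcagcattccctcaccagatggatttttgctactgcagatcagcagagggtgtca
Cntn1: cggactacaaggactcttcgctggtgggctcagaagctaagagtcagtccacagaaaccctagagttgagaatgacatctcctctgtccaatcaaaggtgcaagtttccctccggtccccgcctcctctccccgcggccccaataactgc
Tenm4: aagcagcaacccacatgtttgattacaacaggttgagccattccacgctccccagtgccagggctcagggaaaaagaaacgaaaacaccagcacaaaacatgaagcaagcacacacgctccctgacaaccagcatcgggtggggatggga

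The Cadm2 window held 62.7% G and C bases and 1 GC box, and those of Slitrk1, Cntn1 and Tenm4 held 39.3%, 56.0% and 52.7% and none. A GC box was found in 28.6% of all 32851 promoter windows of this length. The other motifs searched on both strands, with no overlap between motifs considered, were the E-box (CANNTG, in 47.7% of all windows), found once each in Slitrk1 and Tenm4, the TATA box (TATAAA, 7.57%) and the cAMP response element (TGACGTCA, 1.36%), found in none of the 4. Which start the tissue uses cannot be read from gene-level TPM. Starts listed for Tenm2 and Tenm3 lie 291723 and 169261 bases inside the GENCODE gene, so their windows are not shown. For Cadm1 no start was listed among the promoters used, so it has no window either.

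Teneurins are large transmembrane proteins that bind latrophilins and each other, and they guide the matching of synaptic partners. Tenm2 was at 3.32, 9.53, 10.3, 3.15 and 6.17 TPM laterally and at 18.7, 17.7, 15.4, 20.9 and 25.9 TPM medially in replicates 1 to 5. Tenm4 was at 8.84, 15.2, 10.8, 13.1 and 7.72 TPM laterally and at 29.5, 21.5, 19.1, 26.7 and 28.8 TPM medially in replicates 1 to 5. The regions did not overlap for either gene (Tenm2 log2 fold change -1.57 with SE 0.32, limma adjusted p = 0.031; Tenm4 -1.12, 0.23 and 0.0327). Tenm3 was at 14.8, 4.78, 4.34, 5.30 and 6.45 TPM laterally and at 21.5, 18.2, 13.7, 20.01 and 26.03 TPM medially in replicates 1 to 5. Here lateral replicate 1 lay above medial replicate 3 (log2 fold change -1.46 with SE 0.31, limma adjusted p = 0.0368). Tenm1 did not pass, at 12.8 ± 4.16 TPM laterally and 13.1 ± 5.25 TPM medially (log2 fold change 0.01, 95% interval -0.67 to 0.69). The sign of Tenm1 turned under 8 of 22 alternatives, among them a pseudocount of 5 (-0.00277) and sample weights (-0.10). The summed level of the 4 teneurins was 30.3 to 44.1 TPM laterally and 65.2 to 95.9 TPM medially, which did not overlap. As 3 of the 4 were called towards medial on these values, the sum restates those calls. The ratios to Tenm1 within a library did overlap between the regions for all 3 called teneurins. The ratio was 0.224 to 1.06 in lateral and 0.800 to 2.55 in medial libraries for Tenm2, 0.233 to 0.998 in lateral and 0.711 to 2.93 in medial libraries for Tenm3, and 0.580 to 1.70 in lateral and 0.990 to 4.03 in medial libraries for Tenm4.

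The teneurin calls were less stable than those of Cadm2 and Slitrk1. Tenm2 passed under 11, Tenm4 under 9 and Tenm3 under 6 of 22 alternatives, and their log2 fold changes stayed negative under all of them (-0.91 to -1.75). Under median-ratio scaling, where the median of all genes was -0.02, their adjusted p was 0.051, 0.0733 and 0.0748. Leaving out any of lateral replicates 4 and 5 or medial replicates 2, 4 and 5 ended all 3 calls (adjusted p up to 0.0959). Without lateral replicate 5 and medial replicate 2 together, adjusted p was 0.136 for Tenm2, 0.151 for Tenm3 and 0.137 for Tenm4. In GENCODE M21, 1465 exonic bases of Tenm1 lie opposite Sh2d1a, 988 of Tenm4 opposite C230038L03Rik, 256 of Cadm2 opposite 1700010K23Rik and 114 of Tenm3 opposite Gm19744, and unless strand was used in counting, reads of such partners cannot be told apart.

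**Figure D3:**
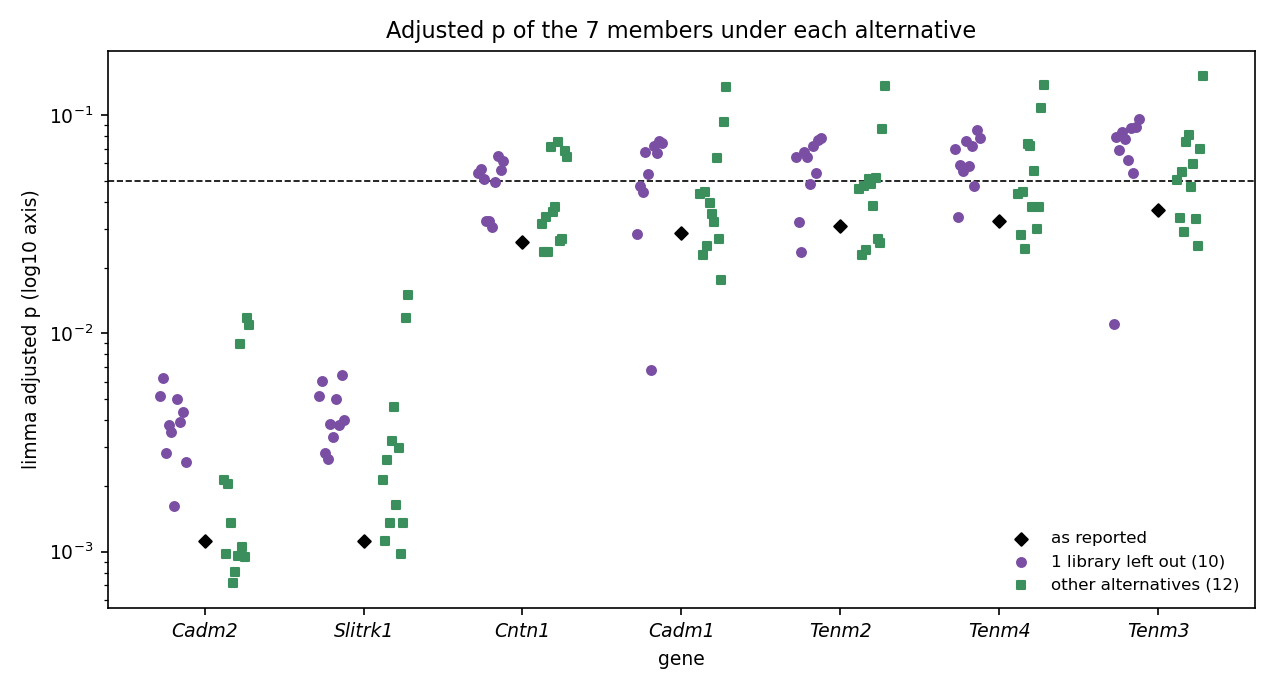
Limma adjusted p on a log10 axis for the 7 genes, as reported (diamonds), with 1 library left out (circles) and under the other alternatives (squares), with a dashed line at 0.05. All points of Cadm2 and Slitrk1 lie below the line, and those of the other 5 genes lie on both sides of it.

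Contactins are immunoglobulin-type molecules anchored in the membrane by a lipid, and contactin 1 forms the axonal part of the paranodal junction together with the product of Cntnap1. Cntn1 (chromosome 15, 92051165 to 92341967, plus strand) was at 42.7, 34.4, 34.8, 57.4 and 56.1 TPM laterally and at 80.9, 75.0, 104, 81.2 and 114 TPM medially in replicates 1 to 5. All lateral libraries were below all medial ones (log2 fold change -1.01 with SE 0.20, limma adjusted p = 0.0262). Its call held under 12 of 22 alternatives. Among the others, it was lost under median-ratio scaling (log2 fold change -0.81, adjusted p = 0.071) and without any of lateral replicates 1 to 3 or medial replicates 3 to 5 (adjusted p up to 0.0646), without a mean-variance trend (0.0751) and without lateral replicate 5 and medial replicate 2 together (0.0642). Cntn3 was at 4.76, 7.78, 8.59, 4.65 and 3.46 TPM laterally and at 3.29, 3.88, 2.48, 1.87 and 2.04 TPM medially in replicates 1 to 5, overlapping in 1 lateral library (log2 fold change 0.85, limma adjusted p = 0.251). Cntn4 (5.39 ± 0.366 TPM laterally, 3.64 ± 1.15 TPM medially), Cntn5 (5.89 ± 1.65 TPM laterally, 11.3 ± 9.85 TPM medially) and Cntn6 (4.63 ± 1.13 TPM laterally, 3.48 ± 1.65 TPM medially) did not pass.

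The contactin-associated proteins link contactins to the axonal skeleton, Cntnap1 at the paranode and Cntnap2 where potassium channels gather beside it. Cntnap1 was at 18.02, 23.8, 18.9, 13.1 and 17.8 TPM laterally and at 18.8, 11.0, 3.26, 16.3 and 9.98 TPM medially in replicates 1 to 5. The regions overlapped, and Cntnap1 had a positive and its partner Cntn1 a negative log2 fold change (0.74, limma adjusted p = 0.359, for Cntnap1). Cntnap2 averaged 27.8 ± 9.83 TPM laterally and 36.2 ± 11.0 TPM medially (adjusted p = 0.601), Cntnap4 3.26 ± 2.89 TPM laterally and 3.19 ± 2.53 TPM medially (0.951), and Cntnap5a 9.60 ± 3.41 TPM laterally and 5.97 ± 1.89 TPM medially (0.448).

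Among the neurexins and the proteins that bind them, none passed. Nrxn3, a presynaptic receptor, was at 12.8, 28.1, 25.5, 28.2 and 31.2 TPM laterally and at 26.8, 64.0, 39.1, 55.0 and 56.0 TPM medially in replicates 1 to 5. Medial replicate 1 lay within the lateral range and the other medial libraries above it (limma adjusted p = 0.146, log2 fold change -0.91, 95% interval -1.52 to -0.30). Nrxn2 averaged 6.42 ± 2.42 TPM laterally and 8.48 ± 3.64 TPM medially (adjusted p = 0.705). Cbln4, a secreted cerebellin that joins neurexins to postsynaptic partners, was at 4.31, 0.642, 10.02, 2.98 and 0 TPM laterally and at 2.20, 22.3, 41.3, 27.8 and 46.8 TPM medially in replicates 1 to 5. As with Nrxn3 and Cadm1, medial replicate 1 was the lowest medial library and lay among the lateral ones. The log2 fold change of Cbln4, -2.69, did not pass (limma adjusted p = 0.108, 95% interval -4.33 to -1.06), except without medial replicate 1 (-3.38, adjusted p = 0.0178). Cbln2 was listed at 0 in all 10 libraries.

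Neuroligins are the postsynaptic partners of neurexins, with neuroligin 1 typical of excitatory and neuroligin 2 of inhibitory synapses. Nlgn3 was at 35.3, 43.0, 36.0, 35.0 and 25.9 TPM laterally and at 49.0, 43.2, 44.8, 55.9 and 62.0 TPM medially in replicates 1 to 5. The regions did not overlap, by a margin between 43.0 and 43.2 TPM, and the gene did not pass (log2 fold change -0.53, limma adjusted p = 0.184). Of its distinct 50-base stretches, 40.9% also occur in transcripts of other annotated genes, nearly all in Gm21986, which overlaps it on the same strand, so its value is uncertain. Nlgn1 averaged 20.5 ± 9.54 TPM laterally and 13.9 ± 3.94 TPM medially (adjusted p = 0.567), and Nlgn2 25.8 ± 3.82 TPM laterally and 20.2 ± 2.63 TPM medially (0.432). Within a library the ratio of Nlgn2 to Nlgn3 was 0.548 to 1.04 in lateral and 0.338 to 0.478 in medial libraries, which did not overlap. This ratio sets a gene with a positive log2 fold change (0.33) over one with a negative one, which favours separation. It also carries the uncertainty of the Nlgn3 value.

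LRRTMs are postsynaptic neurexin partners of excitatory synapses. Lrrtm3 was at 41.8, 68.4, 60.6, 47.8 and 52.8 TPM laterally and at 72.3, 114, 54.5, 75.4 and 75.1 TPM medially in replicates 1 to 5. Medial replicate 3 lay within the lateral range (log2 fold change -0.50, limma adjusted p = 0.265). Lrrtm4 was at 9.10, 9.04, 18.1, 14.3 and 10.6 TPM laterally and at 15.6, 15.1, 13.4, 20.7 and 25.8 TPM medially in replicates 1 to 5, with overlap (-0.54, adjusted p = 0.349). Lrrtm1 averaged 37.9 ± 7.96 TPM laterally and 36.3 ± 15.7 TPM medially, and Lrrtm2 16.2 ± 9.15 TPM laterally and 16.7 ± 9.26 TPM medially. Of the secreted neurexophilins, which bind alpha-neurexins, Nxph1 averaged 19.1 ± 14.4 TPM laterally and 17.7 ± 10.9 TPM medially (adjusted p = 0.874). Nxph2 reached 1 TPM in 4 lateral libraries and 1 medial library, so it entered the test mainly through the lateral group, and did not pass (adjusted p = 0.688).

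**Figure D4:**
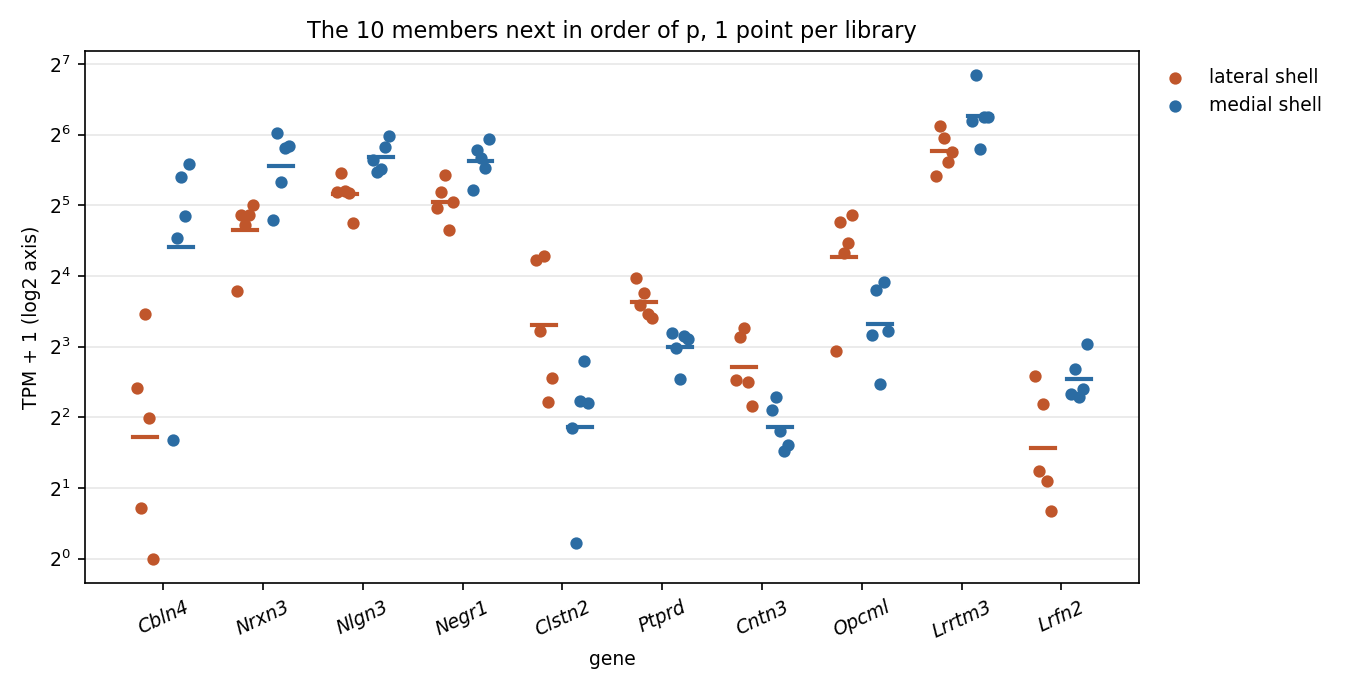
TPM + 1 on a log2 axis for the 10 genes next in order of p, with 1 point per library, lateral left and medial right, and a bar at the mean log2 value. None passed the threshold, and the regions do not overlap for Nlgn3 and Ptprd.

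The LAR-type phosphatases are the presynaptic receptors of the SLITRK, LRFN and IL1RAPL families. Ptprd was at 14.7, 11.1, 12.5, 10.01 and 9.60 TPM laterally and at 8.16, 6.88, 4.82, 7.84 and 7.59 TPM medially in replicates 1 to 5. All lateral libraries lay above all medial ones, yet the gene did not pass (limma adjusted p = 0.232, log2 fold change 0.65, 95% interval 0.12 to 1.17). Ptprs averaged 39.0 ± 11.3 TPM laterally and 50.3 ± 15.3 TPM medially (adjusted p = 0.512), and Ptprf 13.4 ± 4.15 TPM laterally and 10.9 ± 2.74 TPM medially (0.704). The ratio of Ptprd to Ptprs within a library overlapped, at 0.214 to 0.415 in lateral and 0.101 to 0.223 in medial libraries. Among their other ligands, Lrfn2 was at 5.03, 1.37, 3.57, 1.14 and 0.591 TPM laterally and at 4.00, 5.46, 3.87, 4.26 and 7.19 TPM medially in replicates 1 to 5. Only lateral replicate 1 reached the medial range (log2 fold change -0.99, limma adjusted p = 0.279). Lrfn5 averaged 11.6 ± 2.71 TPM laterally and 15.5 ± 6.22 TPM medially, and Il1rapl1 7.43 ± 1.93 TPM laterally and 7.74 ± 2.69 TPM medially. The FLRT genes overlapped as well, Flrt1 at 14.5 ± 3.79 TPM laterally and 14.0 ± 0.968 TPM medially, Flrt2 at 19.6 ± 4.87 TPM laterally and 25.8 ± 7.27 TPM medially, and Flrt3 at 30.1 ± 4.41 TPM laterally and 40.1 ± 8.68 TPM medially.

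Calsyntenins, cadherin-like proteins of the postsynaptic membrane, gave the highest levels of all the genes. Clstn1 averaged 155 ± 24.5 TPM laterally and 153 ± 13.8 TPM medially, with a 95% interval of the log2 fold change of -0.31 to 0.32. Clstn3 averaged 113 ± 17.9 TPM laterally and 108 ± 25.1 TPM medially (-0.31 to 0.47). The third member, Clstn2, was far lower, at 17.7, 8.35, 18.4, 3.64 and 4.87 TPM laterally and at 2.59, 0.164, 3.67, 5.96 and 3.58 TPM medially in replicates 1 to 5. Its regions overlapped and it did not pass (limma adjusted p = 0.22, log2 fold change 1.44, 95% interval 0.29 to 2.59).

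The IgLON genes Lsamp, Ntm, Opcml and Negr1 encode lipid-anchored immunoglobulin-type proteins that bind each other on neurites. Negr1 was at 30.1, 35.4, 41.9, 24.1 and 32.0 TPM laterally and at 36.1, 54.2, 49.8, 44.9 and 60.4 TPM medially in replicates 1 to 5 (log2 fold change -0.57, limma adjusted p = 0.186). Opcml was at 6.65, 26.0, 19.0, 21.2 and 28.2 TPM laterally and at 7.99, 12.9, 4.56, 14.0 and 8.29 TPM medially in replicates 1 to 5 (0.96, adjusted p = 0.256). Lateral replicate 1 was the lowest lateral library for Opcml, and the other 4 lay above all medial libraries. Ntm averaged 45.7 ± 6.27 TPM laterally and 35.8 ± 17.8 TPM medially, and Lsamp 12.3 ± 2.81 TPM laterally and 17.9 ± 5.00 TPM medially. The summed IgLON level was nearly the same in both, 111 ± 10.4 TPM laterally and 112 ± 9.37 TPM medially (SD, n = 5 each), although 2 members had positive and 2 negative log2 fold changes, none of them past the threshold. Ncam1, the neural cell adhesion molecule, was at 47.7, 46.4, 54.8, 51.4 and 16.5 TPM laterally and at 48.4, 65.3, 68.6, 53.3 and 77.4 TPM medially in replicates 1 to 5. Lateral replicate 5 stood below the rest, and the gene did not pass (-0.61, adjusted p = 0.341). Ncam2 averaged 11.3 ± 3.92 TPM laterally and 8.19 ± 1.23 TPM medially.

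**Figure D5:**
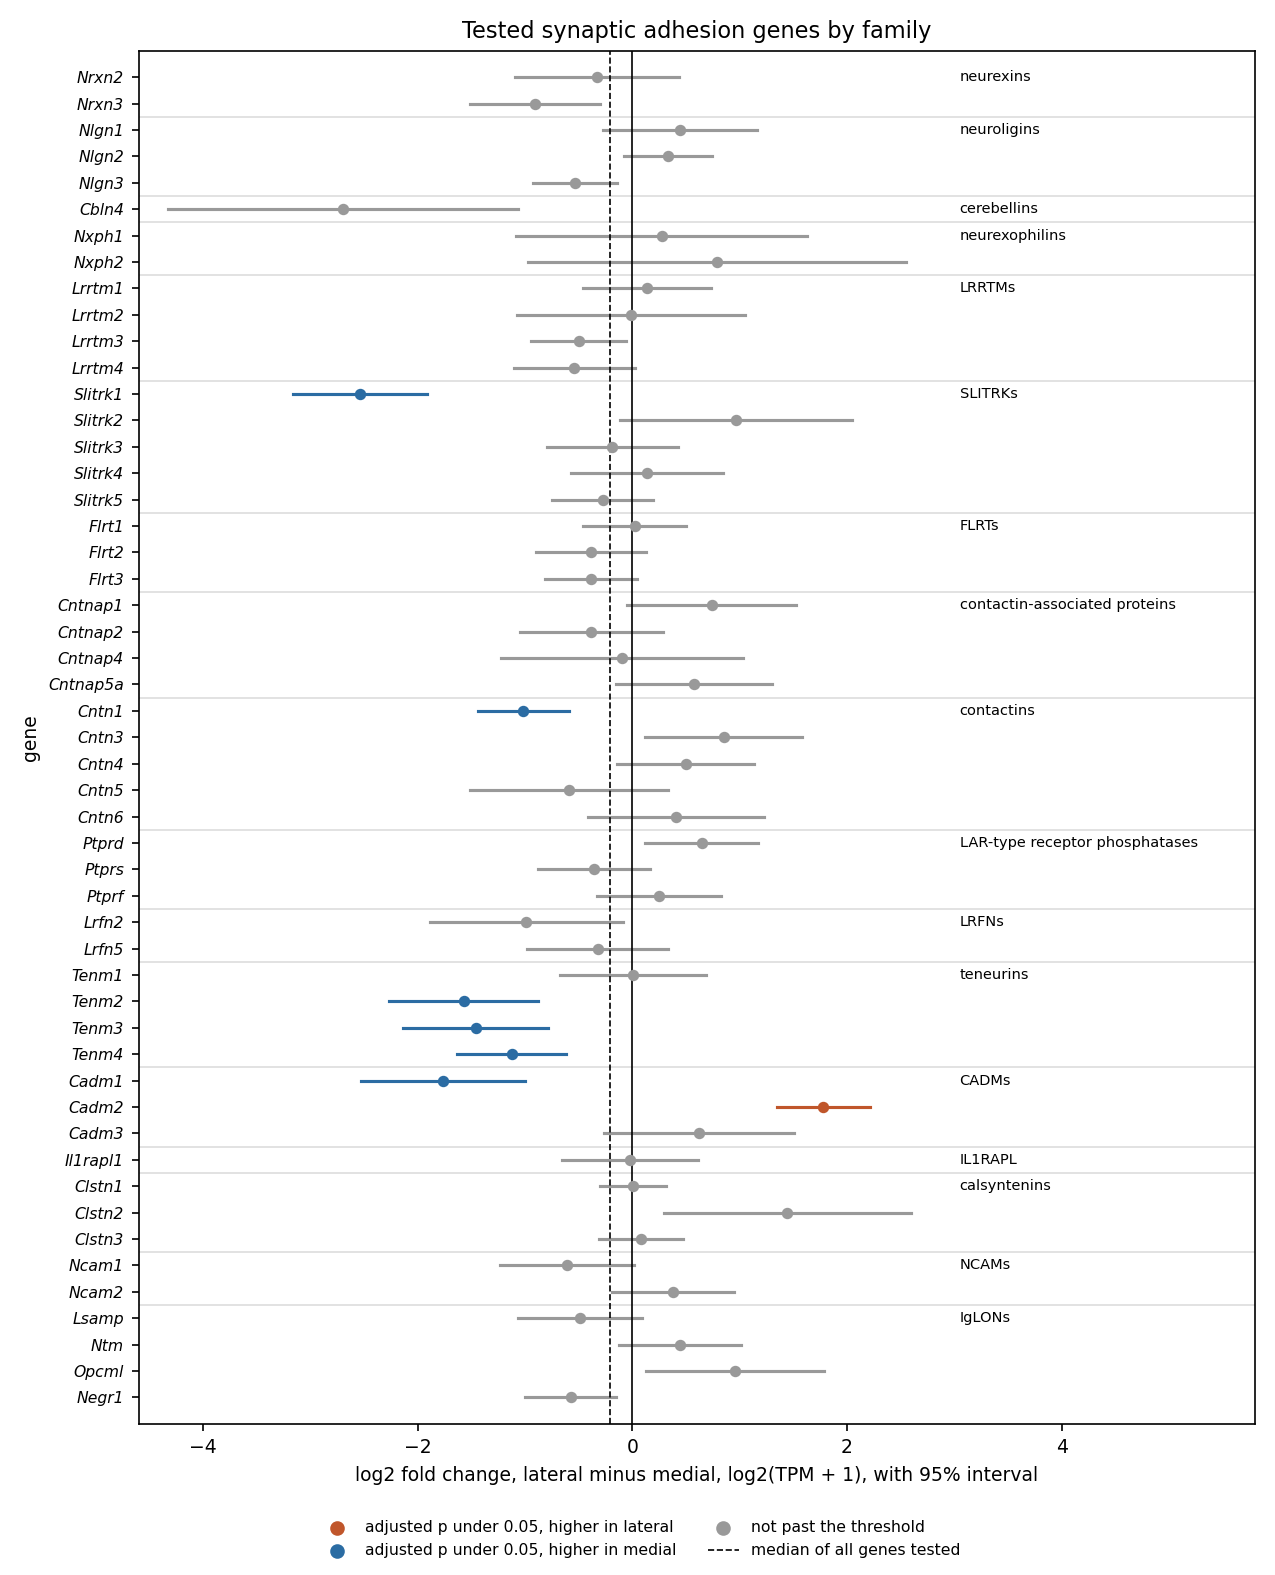
Log2 fold change, lateral minus medial, of log2(TPM + 1) with its 95% interval for the 51 tested genes in 17 families, with a solid line at 0 and a dashed line at the median of all genes tested (-0.21). Cadm2 is to the right, Slitrk1, Cntn1, Cadm1, Tenm2, Tenm3 and Tenm4 are to the left, and the other genes are drawn in grey.

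A list of 41 other adhesion genes (among them latrophilins, netrin-G ligands and pentraxins) had 33 tested members. Of these, 23 had positive and 10 negative log2 fold changes, with a median of 0.17. Over all genes, 31.3% were positive and the median was -0.21. None of the 33 passed limma, and 4 had an unadjusted p under 0.05, against 15.4% of all genes. This list too was chosen with earlier results of these data known, so its shares are not read as a result. The smallest p values belonged to Lrrc4c, a netrin-G ligand (44.4 ± 9.74 TPM laterally, 69.0 ± 11.4 TPM medially, limma adjusted p = 0.117), and Nptx2, a neuronal pentraxin (7.41 ± 2.67 TPM laterally and 3.11 ± 5.36 TPM medially, 0.208). Of 28 tested genes for the intracellular scaffolds that adhesion molecules bind, 11 had positive and 17 negative values with a median of -0.09. Against 1.48% of all genes, 1 of these 28 passed. This was Lin7a, a scaffold protein of the presynaptic and postsynaptic sides, at 6.52, 11.9, 27.9, 36.8 and 29.6 TPM laterally and at 66.7, 89.6, 67.0, 84.1 and 99.4 TPM medially in replicates 1 to 5. The regions did not overlap for Lin7a (log2 fold change -2.02 with SE 0.38, limma adjusted p = 0.0225).

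The adhesion genes are long. Their median span in GENCODE M21 was 301 kb against 15.9 kb for all genes tested, and 19 of the 51 (37.3%) exceeded 500 kb against 1.24% of all. Of the 193 tested genes over 500 kb, 12 passed (6.22%), and 4 of those 12 were the adhesion genes Tenm2, Tenm3, Tenm4 and Cadm2. Across the 51 genes, which are not independent replicates, span and log2 fold change had a Spearman rho of 0.04 and across all genes of 0.03. Slitrk1, at 5.36 kb, had the shortest span of the 51.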

How the data were processed

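RNA of 5 lateral and 5 medial shell samples of wild-type mice was analysed from the TPM table that the authors deposited, with 1 column per sample. Per the submitters' processing notes, fastp 0.20.0, HISAT2 2.1.0, StringTie 1.3.4, featureCounts 1.6.3 and the build GRCm38 (mm10) were used, without stated roles. For the annotation and the use of strand, nothing is given in the sources used here. Samples were grouped by title. Genes with at least 1 TPM in at least 5 libraries were fitted with limma 3.58.1 in R 4.3.3 (empirical Bayes with a mean-variance trend) on log2(TPM + 1), lateral minus medial, with Benjamini-Hochberg adjustment over 15596 genes. A fold change on this scale understates the change of low genes. The fit was tested on simulated data. TPM keeps no depth, so no counting interval is given, and zeros are only described as listed. Positions, overlaps and shared 50-base stretches came from GENCODE M21 and promoters from RefSeq. Figures were drawn with matplotlib. Genes are given with their values in every library where they passed, did not overlap or were among the 20 smallest p, and otherwise as means. The genes and lists were chosen with earlier results of these data known. Alternatives changed the pseudocount, filter, scaling, variance model, replicate block and libraries.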

Additional observations from a re-analysis of the deposited data

Results flagged for a closer look

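In 11 of 102 groups of 5 values (51 genes in each region), 1 extreme library stood apart by more than Dixon's 95% critical value. For independent, normally distributed values chance flags about 5% of groups. These groups were taken in TPM without logs and share the same libraries, so the count is not read as an excess. Lateral replicate 1 was high for Tenm3 (14.8 TPM, the others at 4.34 to 6.45 TPM), lateral replicate 3 for Nxph1 (43.8 TPM, others 8.44 to 17.7 TPM). Lateral replicate 4 was low for Nlgn2 (19.2 TPM, others 26.6 to 29.0 TPM), and lateral replicate 5 for Ncam1 (16.5 TPM, others 46.4 to 54.8 TPM) and Slitrk4 (5.96 TPM, others 13.4 to 15.8 TPM). Medial replicate 1 was high for Cntn5 (28.5 TPM, others 3.61 to 9.06 TPM) and Flrt2 (38.6 TPM, others 20.4 to 24.2 TPM) and low for Cntnap2 (17.2 TPM, others 37.2 to 44.7 TPM). Medial replicate 2 was low for Nlgn2 (15.5 TPM, others 21.0 to 21.9 TPM). Medial replicate 5 was high for Cntnap4 (7.64 TPM, others 1.504 to 2.68 TPM) and Nxph2 (14.7 TPM, others 0 to 0.282 TPM). Medial replicate 1 was the library farthest from its group's median for 17 of the 51 genes, against 2 to 14 for the other medial libraries.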

How the results depend on the processing

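Cadm2 was the 1 adhesion gene called towards lateral under all 22 alternatives. Those called towards medial numbered 6 as reported, 2 when libraries were scaled by median ratios, 1 without the variance trend, 1 without lateral replicate 5 and medial replicate 2 together, and 1 to 5 with 1 library left out. Over all genes, 60 were called towards lateral and 171 towards medial as reported. Leaving out 1 library gave 27 to 68 towards lateral and 56 to 187 towards medial, leaving out that pair of libraries 15 towards lateral and 35 towards medial, and fitting without the trend 34 towards lateral and 111 towards medial. The medial count was 107 with a pseudocount of 0.1, 82 under median-ratio scaling (88 towards lateral) and 100 under quantile normalization (86 towards lateral). The replicate block gave 1 adhesion gene towards each side (over all genes 19 towards lateral and 45 towards medial; adjusted p was 0.0931 for Cadm1, 0.0681 for Cntn1 and 0.0698 to 0.107 for Tenm2, Tenm3 and Tenm4), where the replicate numbers were not found to pair the samples: deviations from the group means correlated at -0.0534 to 0.0417 within a number, and no lateral library correlated best with its own number. In such fits of fewer samples or degrees of freedom a lost call does not show a smaller difference. The median log2 fold change of the adhesion genes ran from -0.24 to 0.16, with -0.23 under a filter of 5 TPM in 5 samples (44 genes) and -0.24 without medial replicate 2.

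The sign turned for 11 genes that did not pass in any setting. Under median-ratio scaling and quantile normalization the log2 fold changes were 0.0586 and 0.186 for Cntnap4, 0.163 and 0.248 for Il1rapl1, 0.182 and 0.171 for Lrrtm2, and 0.0178 and 0.00417 for Slitrk3. Rescaling without mitochondrial and haemoglobin genes gave 0.0466 for Il1rapl1 and 0.060 for Lrrtm2, and sample weights gave 0.0152, 0.0673 and, for Tenm1, -0.097. A pseudocount of 5 gave -0.00277 for Tenm1. Without lateral replicate 5 and medial replicate 2 together the values were -0.0529 for Clstn3, 0.0158 for Cntnap4, -0.411 for Nxph1 and -0.148 for Tenm1. With 1 library left out they ran from -0.0841 to 0.0537 for Clstn1, -0.0208 to 0.186 for Clstn3, -0.384 to 0.205 for Cntnap4, -0.0879 to 0.140 for Flrt1, -0.173 to 0.119 for Il1rapl1, -0.0542 to 0.323 for Lrrtm1, -0.421 to 0.320 for Lrrtm2, -0.376 to 0.543 for Nxph1, -0.350 to -0.0195 for Slitrk3, -0.0223 to 0.366 for Slitrk4 and -0.160 to 0.160 for Tenm1. The causes were not tested.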
